A study of Mus musculus with 6 samples.

Results

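The 10 genes described here encode matricellular and adhesive glycoproteins, which are secreted into the matrix around a cell: Sparc, Spp1, Thbs1, Thbs2, Tnc, Postn, Mgp, Fbln2, Fn1 and Fstl1. Each was found by its symbol, 1 row per symbol, so all 10 are among the 43548 genes of the deposited table. They are known as secreted modulators of invasive mammary tumour cells, and some were chosen by their FPKM difference with doxycycline (Dox) in these same 6 libraries. Their differences between the groups are therefore given as a description, with a standard error and without a p-value. Met-1 is a mouse mammary carcinoma line of FVB/nJ background, derived from a late tumour of the MMTV-PyMT model, in which a viral oncogene is driven in mammary epithelium. Met-1 TripZ-200c cells also carry a lentiviral vector with an RFP tag that makes the miR-200c precursor when Dox is present. They are a single clone, sorted for low RFP without Dox and intermediate RFP with Dox. Both groups are these same cells after 48 h, 3 libraries with the vehicle, water (MinusDox), and 3 with Dox at 1 µg/mL (PlusDox). Cells with an empty vector were not analysed here, so an action of Dox itself and one of miR-200c cannot be told apart.

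Matricellular proteins sit in the extracellular matrix without being its main scaffold, and they tune how cells attach, spread and respond to growth factors. Fibronectin, in contrast, is assembled by cells into fibrils and is the adhesive ligand that many integrins bind through an Arg-Gly-Asp sequence. In the mammary gland several of these genes are known as products of stroma and of carcinoma cells that have gone through an epithelial-to-mesenchymal transition (EMT). The miR-200 family is known to hold back EMT by pairing with the mRNAs of the transcription factors Zeb1 and Zeb2.

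A microRNA finds its targets mainly through its seed, bases 2 to 8 from the 5′ end, which pairs with matching bases in the 3′ UTR of an mRNA. The induced strand is shown here because it defines the match searched for in the 10 genes, with its seed in capitals. It is taken from RefSeq on GRCm38.p6, where it lies on the minus strand at chr6:124718324-124718346. The other mature mouse miRNAs listed there with the same seed, miR-200b-3p and miR-429-3p, lie on the minus strand of chromosome 4.

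miR-200c-3p: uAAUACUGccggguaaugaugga
miR-200b-3p: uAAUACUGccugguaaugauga
miR-429-3p: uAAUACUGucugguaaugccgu

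The 7 bases that pair with this seed are CAGTATT, read on the mRNA strand only. They were looked for in the longest annotated 3′ UTR of each gene (GENCODE M21, GRCm38, a C57BL/6J sequence). Mgp, Fn1 and Thbs2 each held 1 such match. In Mgp the match was followed by an A, which makes it an 8-base match, and it began 158 bases after the stop codon in a 3′ UTR of 209 bases. In Fn1 it began at base 532 of 692, and in Thbs2 at base 328 of 2013. Thbs1, Thbs2 and Fstl1 each had 1 match to 6 bases only (AGTATT), and Sparc, Spp1, Tnc, Postn and Fbln2 had neither. The stretches around the longer matches are shown with the matched bases in capitals.

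Mgp, minus strand, exon 4, chr6:136872479-136872486: taatgaaagaaCAGTATTAagaagtgtgtt
Fn1, minus strand, exon 45, chr1:71585674-71585680: tcaatttttccCAGTATTtttatacggaa
Thbs2, minus strand, exon 22, chr17:14667179-14667185: gtaattacttgCAGTATTtatgtgtatat

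A match of this kind is common in long 3′ UTRs and rare in short ones. Of the 10812 genes tested that have an annotated 3′ UTR, 16.9% held the 7 bases. Among the 488 of them with a 3′ UTR within 25% of the length of that of Mgp, 1.23% did. The share was 6.47% of 1437 genes for the length of Fn1 and 19.4% of 2306 genes for that of Thbs2.

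**Figure D1:**
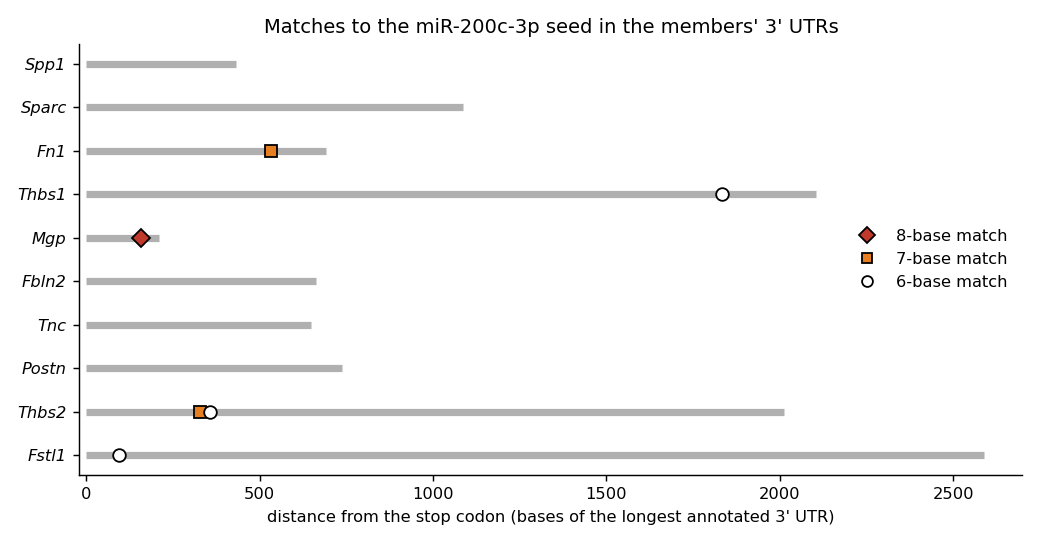
Position of matches to the miR-200c-3p seed in the longest annotated 3′ UTR of each gene; grey bars run from the stop codon to the end of the UTR, to scale in bases, and symbols mark matches to 8, 7 or 6 bases. The 8-base match lies in Mgp, the shortest UTR of the 10 at 209 bases, and 7-base matches lie in Fn1 and Thbs2.

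The deposited values are FPKM, fragments scaled to gene length and to the mapped fragments of each library, and they do not tell how many reads each value rests on. Relative depth was estimated from the most frequent ratio between libraries of the low FPKM values of the same gene. It was 0.914 to 1.49 times that of MinusDox replicate 1. Few genes lay at that ratio, from 59 of 1090 for PlusDox replicate 1 to 165 of 1357 for PlusDox replicate 2. The fit with limma used log2(FPKM + 0.1) and the 12879 genes whose mean reached 1 FPKM. Of these, 909 were higher and 1026 lower with Dox at an adjusted p under 0.05, and the median difference of all genes tested was 0.004 on the log2 scale. Mir200c was listed at 0 in all 6 libraries, while Zeb1 and Zeb2 fell, from 41.8 to 21.2 and from 29.3 to 8.29 FPKM in the mean (adjusted p = 3.62e-04 and 4.48e-05 from limma). All 37 mitochondrial genes were also listed at 0, and a 0 is therefore not taken as silence. The labels call the libraries biological triplicates of plated cells, and the spread between them is that of separate cultures of 1 clone.

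The defining markers of the labelled cell type were only partly present. Of 5 luminal epithelial markers, Krt19 was listed at 0, Epcam, Cdh1 and Krt8 were at 0.0419 to 0.388 FPKM without Dox, and Krt18 was at 91.2 to 96.4 FPKM. With Dox, Epcam was at 3.88 to 4.31, Cdh1 at 0.554 to 1.24, Krt8 at 0.602 to 0.918 and Krt18 at 364 to 400 FPKM. Each of these lay above its values without Dox. The summed level of the 5 markers was 91.6 to 97.0 FPKM without Dox and 369 to 406 FPKM with Dox, nearly all of it Krt18. Of 6 fibroblast markers, Lum was listed at 0, Col1a1, Col1a2 and Dcn had means under 1 FPKM, and the 6 summed to 50.8 to 53.3 FPKM without Dox and 30.8 to 33.0 FPKM with Dox. Most of this sum was Pdgfrb, with means of 32.4 and 15.5 FPKM, and Pdgfra, with 18.6 and 15.5 FPKM. Col1a2 went the other way, from 0.114 to 0.478 FPKM with groups apart, while Col1a1 and Dcn overlapped. Of the 4 endothelial and 5 leukocyte markers found, only Cdh5 and Cd68 had a mean of 1 FPKM or more, with sums of 4.19 to 5.12 and 6.40 to 11.4 FPKM over all libraries. The 5 myoepithelial markers summed to 1.47 to 2.15 FPKM. The part of these marker shifts in the differences below was not tested, and in bulk RNA fewer cells that express a gene and less of its RNA per cell cannot be told apart.

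The 10 genes fell into a high and a low set by level. FPKM is scaled to gene length, so levels are compared between genes, but only roughly. Reads that could be assigned to another gene as well, as for Spp1 below, are a limit. Without Dox the order was Spp1, Sparc, Fn1, Thbs1, Mgp, Fbln2 and Tnc, with no overlap between neighbours over the libraries, followed by Postn, Thbs2 and Fstl1, whose ranges overlapped their neighbours'. Spp1, the most abundant, stood at rank 14 of all 43548 genes without Dox and rank 20 with Dox, and Sparc at ranks 125 and 168. Of the 43548 genes, 23035 were listed at 0 in all 6 libraries, among them all 37 mitochondrial genes, so these ranks hold for this list only. With Dox, Thbs1 stood above Fn1 and moved from rank 556 to rank 249, and Mgp moved from rank 736 to rank 1885, where its range overlapped that of Fbln2. Tnc was at rank 11250 without Dox, far under the 6 genes above it.

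Fn1 (ENSMUSG00000026193, chromosome 1 from 71585520 to 71653200, minus strand) encodes fibronectin. Its FPKM was 266 and 260.5 in MinusDox replicates 1 and 2, and 276 and 272 in PlusDox replicates 1 and 2. Replicate 3 of each group holds a placeholder instead of a value, and was treated as missing, so n = 2 per group. The values with Dox were above those without it by a mean of 4.22%. On the log2 scale the difference was 0.06 (standard error 0.0375), and it did not pass the threshold. Fn1 holds one of the 7-base matches shown above.

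Spp1 (ENSMUSG00000029304, chromosome 5 from 104435118 to 104441050, plus strand) encodes osteopontin, a phosphorylated cytokine-like ligand of integrins and CD44. Without Dox its level was 2864, 2706 and 2900 FPKM, and with Dox 2345, 2251 and 2162 FPKM. Every library with Dox lay under every library without it. The log2 difference was -0.33 (standard error 0.0384), a fall of the mean by 20.2%. The longest annotated transcript of Spp1 shares 12.0% of its length with Gm42793, a gene that overlaps it on the same strand, so a part of its reads could be assigned to either.

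Sparc (ENSMUSG00000018593, chromosome 11 from 55394500 to 55423183, minus strand) encodes osteonectin, which binds collagen and calcium and counters cell spreading. It was at 659.8, 634 and 651 FPKM without Dox. With Dox it was at 548, 545 and 543 FPKM, again with no overlap. Its log2 difference was -0.25 (standard error 0.0252). The spread with Dox was small, a standard deviation of 2.33 FPKM, against 13.4 FPKM without Dox (n = 3 each). Fstl1, a secreted relative of Sparc that binds BMP ligands, was at the other end of the scale. The libraries without Dox list it at 0, 0 and 0.0165 FPKM and those with Dox at 0, 0.121 and 0.0191 FPKM, and these groups overlapped.

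The 2 thrombospondins differed in level by several orders of magnitude. Thbs1 (ENSMUSG00000040152, chromosome 2 from 118111876 to 118127133, plus strand) encodes thrombospondin-1, an inhibitor of angiogenesis that binds CD47 and activates latent TGF-beta. It was the only one of the 7 members tested that passed the threshold in the upward direction. Its FPKM was 239, 237 and 242 without Dox and 424, 425 and 419.6 with Dox. The ratio of the means was 1.77, and the log2 difference was 0.82 (standard error 0.0251), above that of 98.0% of all genes tested. The coefficient of variation within a group was 0.980% without Dox and 0.703% with Dox, the smallest of the 10 genes without Dox. Thbs2, which encodes thrombospondin-2, had 0.0676, 0.0148 and 0.0207 FPKM without Dox and was listed at 0 in all 3 libraries with Dox. These groups did not overlap, at levels too low to be tested. Thbs1 made up 94.2% to 95.2% of the summed FPKM of the 5 thrombospondin genes without Dox and 96.6% to 97.3% with Dox.

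Tnc and Postn encode proteins that stroma and healing wounds are known to lay down. Tnc (ENSMUSG00000028364, chromosome 4 from 63959785 to 64047015, minus strand) encodes tenascin-C, a large hexamer that weakens adhesion to fibronectin. Its level was 3.16, 3.21 and 3.57 FPKM in the MinusDox libraries, against 4.0, 4.53 and 4.11 FPKM in the PlusDox libraries. The groups did not overlap, but the log2 difference of 0.34 (standard error 0.131) did not pass the threshold. Postn encodes periostin, a fasciclin-domain protein that binds integrins. The MinusDox libraries had 0.0314, 0.204 and 0.656 FPKM, and the PlusDox libraries 0.127, 0.0211 and 0.0279 FPKM, so the groups overlapped and the values without Dox ranged widely.

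Mgp (ENSMUSG00000030218, chromosome 6 from 136872435 to 136875823, minus strand) encodes matrix Gla protein, a small vitamin K-dependent inhibitor of calcification that also binds BMP ligands. It had the largest difference among the 7 members tested. Its FPKM was 195, 181 and 198 without Dox and 104, 93.2 and 73.5 with Dox. The mean fell by 52.8%, and the log2 difference was -1.10 (standard error 0.118), under that of all but 0.854% of the genes tested. The spread was wider with Dox, with a coefficient of variation of 17.1% against 4.86% without it. Leaving out each library in turn gave log2 differences from -1.21 to -0.96. Mgp is the gene with the 8-base match shown above.

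Fbln2 (ENSMUSG00000064080, chromosome 6 from 91212455 to 91272540, plus strand) encodes fibulin-2, which bridges fibronectin, elastic fibres and basement membrane. The 3 libraries without Dox had 132, 126 and 129 FPKM, and those with Dox 109.7, 114 and 98.3 FPKM. The groups were apart, with a log2 difference of -0.27 (standard error 0.0580). This gene no longer passed the threshold when MinusDox replicate 1, 2 or 3 or PlusDox replicate 1 was left out, where the log2 difference lay between -0.31 and -0.21 over all 6 omissions.

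Of the 10 genes, 7 passed the filter on low values, and Postn, Thbs2 and Fstl1 did not. Among these 7, Thbs1 passed the threshold upward and Sparc, Spp1, Mgp and Fbln2 downward. Over all genes tested 15.0% passed, 7.06% upward and 7.97% downward. The median log2 difference of the 7 was -0.25. The groups did not overlap in all 7, with 3 higher (Thbs1, Tnc and, over 4 libraries, Fn1) and 4 lower. Of the 12875 genes tested that have all 6 values, 35.0% had groups apart, 17.4% higher and 17.6% lower with Dox. Since some of the genes were picked for their change with Dox, nothing is read from these shares.

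**Figure D2:**
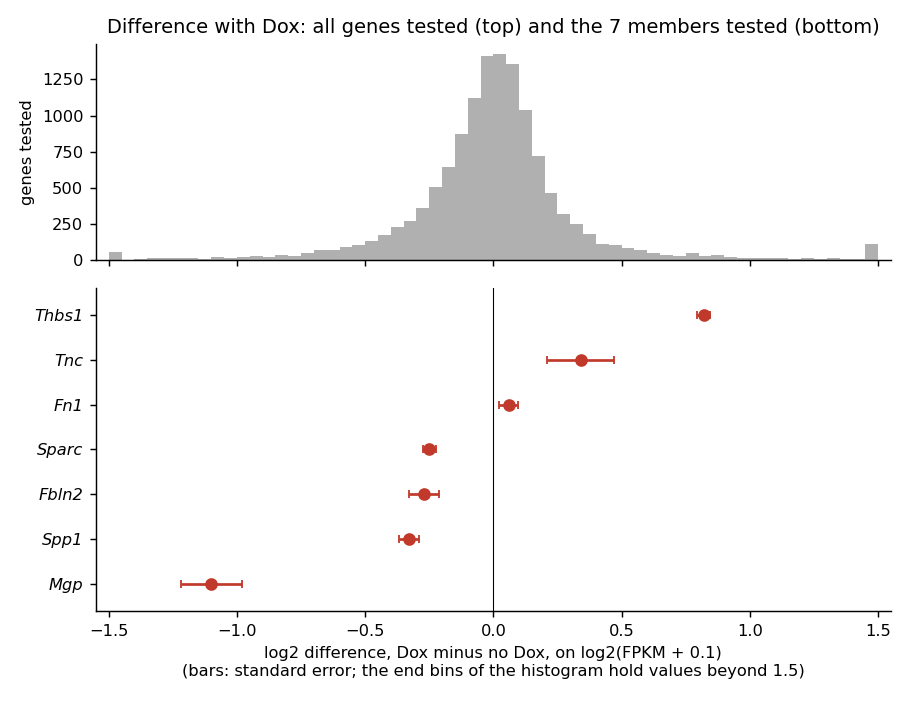
Top, number of genes by log2 difference with Dox for all 12879 genes tested; bottom, the log2 difference of each of the 7 members tested, on log2(FPKM + 0.1), with bars for the standard error. Thbs1 lies at 0.82 and Mgp at -1.10, near the 2 ends of the distribution, and Fn1 lies at 0.06.

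Summed over the 9 genes other than Fn1, whose replicate 3 is missing, the level was 4092, 3887 and 4125 FPKM without Dox and 3534, 3433 and 3301 FPKM with Dox. Spp1 made up 69.6% to 70.3% of this sum without Dox and 65.5% to 66.3% with Dox. The share of Thbs1 went from between 5.83% and 6.10% to between 12.0% and 12.7%. The ratio of Spp1 to Thbs1 was 11.4 to 12.0 in the libraries without Dox and 5.15 to 5.53 in those with Dox, and the ratio of Mgp to Sparc was 0.285 to 0.305 and 0.135 to 0.190. These RNA ratios, taken within each library, differed between the groups, and a common scaling of all genes leaves them as they are. They are a description only, since some of the genes were picked for their change with Dox.

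Seed matches and differences can be set side by side for the 10 genes. The gene with the 8-base match, Mgp, had the lowest log2 difference. Of the 2 genes with a 7-base match, Fn1 did not pass the threshold and Thbs2 was too low to be tested. Sparc, Spp1 and Fbln2 passed downward with no match of 6 bases or more, and Thbs1 passed upward with a 6-base match. In the list of relatives described below, 0 of the 8 that fell and 1 of the 3 that rose (Npnt) held the 7 bases. In the list of receptors, 1 of the 6 that fell (Itgav) and 0 of the 3 that rose did. Over all genes tested with a 3′ UTR, 16.4% of the 1823 with a 7-base match passed downward, and 7.40% of the 8989 without one did. The median 3′ UTR was 2636 bases in the first of these sets and 1185 bases in the second. A match is a stretch of letters in the reference and was not shown here to be bound.

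Promoters were looked at for the CACCTG motif, the E-box that Zeb1 and Zeb2 are known to bind. RefSeq gives promoter windows, 250 bases before to 50 after a start, for 7 of the 10 genes, 1 window each or 2 for Spp1, Tnc and Postn. The start used for Sparc lies inside the gene as bounded above by GENCODE. Those of Fstl1 and Fbln2 and the second of Spp1 and of Tnc also lie inside their genes, and the first of Postn lies furthest outside. Thbs1, Mgp and Fn1 were not matched. Searched on both strands, the motif was found once in Sparc and once in Spp1, and in none of the windows of Fstl1, Thbs2, Tnc, Postn and Fbln2, while 20.2% of 32851 promoter windows held it. The stretches are shown with the motif, which reads CAGGTG on the strand of the gene, in capitals.

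Sparc, minus strand, first capital 1 base before that start, in the window chr11:55420031-55420330: aacagatgagaCAGGTGgggccagggtg
Spp1, plus strand, first capital 98 bases before the start of the first of its windows, chr5:104434861-104435160: aagtgtaggagCAGGTGggccgggtagt

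The AP-1 motif TGANTCA, searched in the same way, was in none of the windows of the 7 genes and in 7.81% of all windows.

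Genes of the same protein families and other secreted adhesive glycoproteins were followed in a list of 58 relatives. Of these, 14 were listed at 0 in all libraries and 42 did not reach the filter, among them every other fibulin and sialoprotein of the list. Of the 16 tested, 3 rose and 8 fell with Dox, and 5 did not pass, with a median log2 difference of -0.18. Over all genes tested 7.06% passed upward and 7.97% downward. The list was chosen with earlier results of these data known, as was that of the receptors. Without MinusDox replicate 2, 7 of the 16 passed.

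In the CCN family, matricellular proteins that bind integrins and growth factors, members moved in both directions. Cyr61 rose from 335 ± 5.11 to 472 ± 20.6 FPKM and Ctgf from 143 ± 2.44 to 171 ± 1.41 FPKM (SD, n = 3 each), with log2 differences of 0.49 and 0.26 (adjusted p = 3.57e-04 and 0.00204 from limma). Nov fell from 22.2 ± 0.471 to 13.4 ± 0.463 FPKM, a log2 difference of -0.72 (adjusted p = 5.08e-04 from limma). Wisp1 had 15.0 ± 0.893 and 16.4 ± 1.59 FPKM, and its difference did not pass (adjusted p = 0.432 from limma). Npnt, which encodes nephronectin, a ligand of integrin alpha-8, rose from 22.8 ± 0.8 to 40.5 ± 0.289 FPKM. Its ratio of means, 1.77, was that of Thbs1 (log2 difference 0.82, adjusted p = 1.41e-04 from limma).

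Among the relatives that fell, Sparcl1, the closest relative of Sparc, went from 1.90 ± 0.356 to 0.550 ± 0.115 FPKM (log2 difference -1.62, standard error 0.326, adjusted p = 0.0179 from limma). It reached the filter only through its level without Dox, and with no filter its adjusted p was 0.0235. Dmp1, a sialoprotein of the list, was under the filter and is named after its values were seen. Its means were 0.658 FPKM without Dox and 0.142 FPKM with Dox, given as a description without a p-value. Gas6, a Gla protein like Mgp and the ligand of the Axl receptor, went from 11.1 ± 0.962 to 6.36 ± 0.626 FPKM (log2 difference -0.80, adjusted p = 0.00405). Mfge8, which binds integrin alpha-v and coats dying cells, went from 497 ± 6.0 to 406 ± 16.3 FPKM (log2 difference -0.29, adjusted p = 0.00224). Matn2, Tnxb, Tgfbi and Ecm1 also fell, with log2 differences of -0.75, -0.70, -0.92 and -0.26 and adjusted p-values from limma of 0.00391, 0.0162, 0.0383 and 0.0452. In contrast to Thbs1, Thbs3 was at 12.9 ± 1.27 and 13.1 ± 1.33 FPKM (log2 difference 0.02, standard error 0.106), and Fstl3 at 45.2 ± 1.37 and 42.5 ± 0.996 FPKM (log2 difference -0.09, standard error 0.0454). Neither passed. Some of these calls were lost when 1 library was left out, where fewer libraries enter the fit. Sparcl1 lost its call without MinusDox replicate 1 or 2 or PlusDox replicate 3 (adjusted p = 0.0578, 0.0611 and 0.0508), and Tnxb without MinusDox replicate 2 or 3 or PlusDox replicate 2 (0.0586, 0.0542 and 0.0555). Tgfbi lost it whichever 1 library was left out (0.0635 to 0.119). The same held with no filter, in the linear model per gene on FPKM and with a replicate block (0.0648, 0.0691 and 0.0755). Ecm1 lost it in all omissions but that of PlusDox replicate 1 (0.0724 to 0.129) and under either rescaling of the libraries (0.0510 and 0.0533). It also did so with no filter, without the trend and in the linear model per gene (0.09, 0.101 and 0.141). With a replicate block, Sparcl1 and Tnxb did not pass (0.0558 and 0.0548).

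Cell surface receptors of these glycoproteins were followed in a list of 19, of which 13 were tested. With Dox 3 rose, 6 fell and 4 did not pass, with a median log2 difference of -0.14, where 15.0% of all genes tested passed in either direction. Lrp1, the endocytic receptor that clears thrombospondin-1 and matrix proteases, fell from 169 ± 4.66 to 89.8 ± 7.55 FPKM (SD, n = 3 each). Its log2 difference was -0.91 (standard error 0.0622, adjusted p = 2.33e-04 from limma), below that of any other receptor tested. Itga3, an integrin subunit best known for binding laminin, rose from 276 ± 4.72 to 430.5 ± 16.5 FPKM (log2 difference 0.64, adjusted p = 1.09e-04). The 2 syndecans of the list, co-receptors that bind fibronectin and thrombospondins through heparan sulfate, moved in opposite directions. Sdc1 rose from 154 ± 6.08 to 185 ± 2.91 FPKM, and Sdc4 fell from 326 ± 4.28 to 274 ± 4.35 FPKM (adjusted p = 0.00501 and 0.00167 from limma).

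Among the receptors of fibronectin and osteopontin, Itgav, Itga5, Itga8 and Cd44 fell, with log2 differences of -0.19, -0.24, -0.25 and -0.15 (adjusted p = 0.0269, 0.0321, 0.0315 and 0.0208 from limma), and Itgb8 rose by 0.52 (adjusted p = 0.0270). Itgb3, the partner of alpha-v in an osteopontin receptor, was under the filter and is named after its values were seen. It had 1.33, 1.27 and 1.26 FPKM without Dox and 0.516, 0.361 and 0.430 FPKM with Dox, groups apart. These values are likewise a description without a p-value. Itgb1, the common partner of many of these chains, was at 599 ± 8.18 and 574 ± 8.76 FPKM, and Itgb5 at 306 ± 4.22 and 295 ± 3.42 FPKM. Their differences did not pass (adjusted p = 0.150 and 0.258). Cd47, the thrombospondin-1 receptor, was at 38.5 ± 1.53 and 45.1 ± 2.87 FPKM and lay at the threshold (adjusted p = 0.0504 from limma). The count of 9 receptors fell to 4 without MinusDox replicate 2, without PlusDox replicate 1 or without PlusDox replicate 3, and to 5 without PlusDox replicate 2. Lost in these omissions were the calls of Itgav, Itga5, Itga8, Itgb8 and Cd44, with adjusted p-values up to 0.103, while Itga3, Sdc1, Sdc4 and Lrp1 passed in all 15 alternatives.

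**Figure D3:**
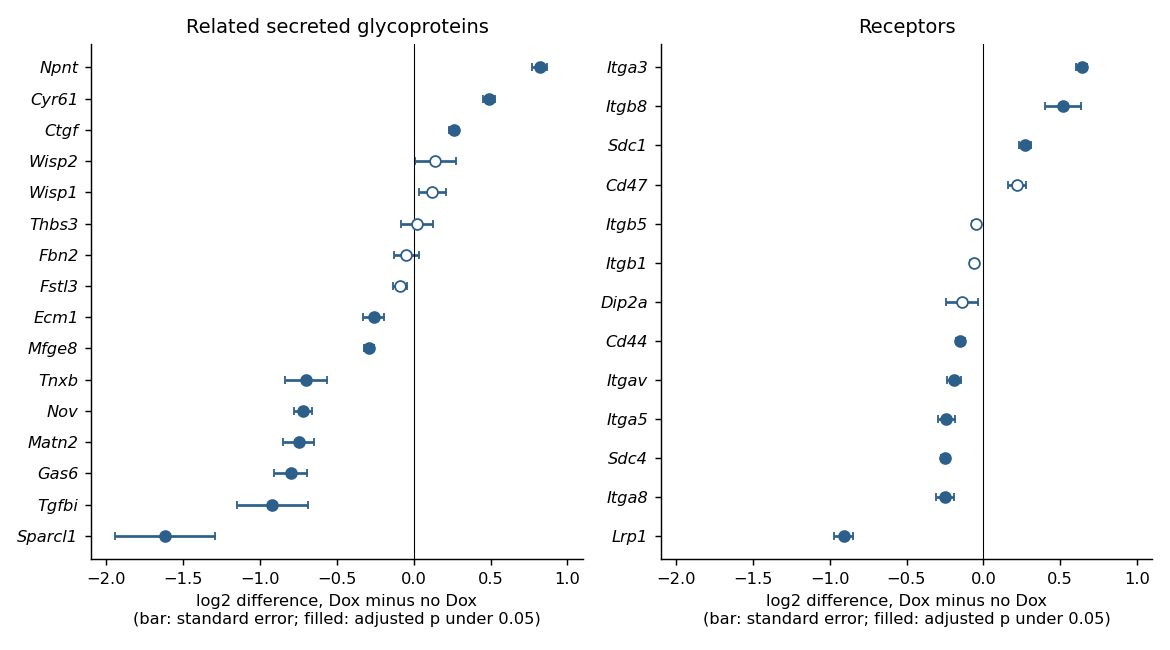
Log2 difference with Dox, on log2(FPKM + 0.1), of the 16 related secreted glycoproteins (left) and the 13 receptors (right) that were tested; bars are standard errors, filled points had an adjusted p under 0.05 and open points did not. Npnt at 0.82 and Itga3 at 0.64 lie highest, and Sparcl1 at -1.62 and Lrp1 at -0.91 lie lowest.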

How the data were processed

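Single-end reads of stranded mRNA libraries, 3 per group, were aligned by the authors with gSNAP, and Cufflinks gave the deposited FPKM per gene (versions and strand setting of the counting are not given in the sources used here). The submitters' processing notes name the build GRCm38.p6, and the methods an FVB/NJ assembly as well. The deposited group means (FPKM), signed fold change, p-value and q-value columns of the authors hold their own comparison and were not used. Of 43611 rows, 63 repeats of an identifier were dropped, the row with the highest mean being kept, and 6 placeholders in 4 genes were treated as missing. There were 0 unused columns of per-sample values.

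Groups and replicate numbers came from the sample titles. limma 3.58.1 (R 4.3.3) was fitted to log2(FPKM + 0.1) of genes whose mean reached 1 FPKM (group as the only term, eBayes with trend, Benjamini-Hochberg over 12879 genes, threshold 0.05). A difference on this scale understates the change of low genes. The genes, lists and tests were chosen with earlier results of these data known. All 10 members are named. Of the relatives and receptors, each gene that passed is named, with the 3 most abundant of each list that did not. Dmp1 and Itgb3, both under the filter, are named outside this rule, after their values were seen. Zeb1, Zeb2 and Mir200c are named as a check of the induction. Seed matches and coordinates come from GENCODE M21, and miRNA and promoter sequences from RefSeq on GRCm38.p6. Longest transcripts were compared with all others by BLAST 2.17.0 at 95% identity. The alternatives tried were pseudocounts of 1 and 0.01, a minimum of 5 FPKM or none, rescaling of the libraries by quantiles or by their median, no trend, a linear model per gene on FPKM, a replicate block and the omission of each library.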

Additional observations from a re-analysis of the deposited data

How the results depend on the processing

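The direction of the 7 members tested was the same under all alternatives run, and their differences stayed within -1.21 to -0.96 (Mgp), -0.36 to -0.30 (Spp1), -0.31 to -0.21 (Fbln2), -0.27 to -0.24 (Sparc), 0.03 to 0.07 (Fn1), 0.27 to 0.39 (Tnc) and 0.79 to 0.83 (Thbs1) on the log2 scale. Quantile normalization moved Thbs1 to 0.79 and Fn1 to 0.03, more than the spread between replicates; the cause was not tested. Sparc, Spp1, Thbs1 and Mgp passed the threshold in every alternative, a description only, since some members were picked for their change with Dox. Fbln2 did not pass without the trend or in the linear model per gene on FPKM, and Tnc passed without the trend. Tnc has no value at a minimum of 5 FPKM. Postn, Thbs2 and Fstl1 entered only the fit with no filter, where none of the 3 passed, and no fold is given for values this near 0.

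Without 1 library in turn, the count of genes that passed, 1935 with all libraries, lay between 1048 and 1359, that of members between 4 and 5, of relatives between 7 and 10 and of receptors between 4 and 7; fewer libraries enter these fits. The linear model per gene on FPKM gave 1289 genes. With the replicate block, 1337 genes passed, of which 1269 also passed without it, 5 members, 8 relatives and 4 receptors. Pairing by number was checked on deviations from the group means, whose correlation was -0.008 to 0.036 for libraries of the same number. They share only a number, and neither library numbered 3 correlated best with its own number. Depth is unknown for FPKM, so counting error could not be given for any value, least of all for genes under 1 FPKM.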
